A study of Mus musculus with 6 samples.

Results

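The genes described here are 3 metallothioneins, Mt1, Mt2 and Mt3, and 6 genes of the glucocorticoid response, Fkbp5, Tsc22d3, Sgk1, Zbtb16, Sult1a1 and the receptor gene Nr3c1. They were taken by name from the authors' table of TPM, a measure of relative transcript abundance scaled to gene length, which holds 26264 genes, and all 9 were present. All 9 averaged 1 TPM or more and so were among the 13084 genes tested. The libraries came from brains of Gfap-Cre; RiboTag mice of an age not given in the sources used here. There were 3 libraries from mice fed PLX5622 at 1200 ppm for 1 month and 3 from mice fed the control diet for 1 month, and both groups carried the same Cre and tagged ribosome alleles. PLX5622 inhibits the receptor Csf1r and is used to remove microglia. RiboTag tags a ribosomal protein in cells that express Cre, so that their ribosome-bound mRNA can be pulled down with an antibody. The Cre transgene used a Gfap promoter, which is active mainly in astrocytes, but the labels state that neurons and oligodendrocytes also contributed to the captured RNA.

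Metallothioneins are small cysteine-rich proteins that bind zinc and copper. Mt1 and Mt2 are induced by metals through the transcription factor Mtf1, which binds metal response elements in their promoters, and by glucocorticoids. Mt3 is the brain-enriched form and is known to respond little to metals. Corticosterone binds the glucocorticoid receptor, the product of Nr3c1, which then enters the nucleus and binds glucocorticoid response elements. Fkbp5, Tsc22d3, Sgk1 and Zbtb16 are among the genes it is known to induce in brain glia.

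The promoters are shown first because Mt1, Mt2 and Mt3 moved together across libraries and because Sgk1 varied most of the 9 genes. Each sequence is the 250 bases before a RefSeq gene start in build GRCm38.p6, on the plus strand. RefSeq promoters of 7 of the 9 genes were used here, and those of Nr3c1 and Zbtb16 were not. Capitals in the first 3 mark the metal response element core, searched as TGCGCNC or TGCACNC on both strands with overlaps allowed.
Mt1 (chr8:94178839-94179088): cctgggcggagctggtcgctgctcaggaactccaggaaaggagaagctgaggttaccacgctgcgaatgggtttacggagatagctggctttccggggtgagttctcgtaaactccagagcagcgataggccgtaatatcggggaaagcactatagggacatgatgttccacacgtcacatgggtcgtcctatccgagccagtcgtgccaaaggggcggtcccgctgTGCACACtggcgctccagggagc
Mt2 (chr8:94172368-94172617): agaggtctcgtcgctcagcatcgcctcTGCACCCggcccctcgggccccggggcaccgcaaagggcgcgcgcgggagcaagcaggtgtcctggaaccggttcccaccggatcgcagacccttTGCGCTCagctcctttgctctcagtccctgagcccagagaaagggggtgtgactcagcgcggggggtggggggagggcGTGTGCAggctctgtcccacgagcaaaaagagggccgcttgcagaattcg
Mt3 (chr8:94152357-94152606): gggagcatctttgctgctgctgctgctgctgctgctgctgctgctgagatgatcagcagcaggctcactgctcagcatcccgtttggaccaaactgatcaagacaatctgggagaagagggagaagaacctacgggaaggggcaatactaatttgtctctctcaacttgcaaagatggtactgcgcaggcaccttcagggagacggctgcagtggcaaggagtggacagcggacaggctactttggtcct
Capitals in the next sequence mark a glucocorticoid response element, searched as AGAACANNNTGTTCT, which reads the same on both strands.
Sgk1 (chr10:21993640-21993889): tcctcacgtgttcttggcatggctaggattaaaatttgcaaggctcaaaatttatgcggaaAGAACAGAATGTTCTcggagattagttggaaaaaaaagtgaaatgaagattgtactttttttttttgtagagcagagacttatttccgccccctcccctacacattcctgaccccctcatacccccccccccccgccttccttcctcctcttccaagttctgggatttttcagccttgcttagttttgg

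The Mt2 window held 3 metal response element cores, which begin 223, 128 and 50 bases before the start, and the Mt1 window held 1, which begins 23 bases before it. The Mt3 window held 0. Of 32851 such windows in RefSeq, 21.4% held at least 1 core and 1.26% held 3 or more. In the 50 bases after the start, not printed here, Mt1 had 2 more cores and Mt2 and Mt3 had 1 more each. Bases further after the start were not searched. The counts therefore depend on where the annotated start lies and do not rank whole promoters by their number of cores. The glucocorticoid response element was found in 1 of 6 annotated Sgk1 windows, beginning 189 bases before that start. It was found in 3 of all 32851 windows, which is 0.00913%. The windows of Mt1, Mt2, Mt3, Fkbp5, Tsc22d3 and Sult1a1 did not hold these letters. A match is a run of letters, and binding was not measured.

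A pair of libraries and a length trend touch every comparison below. The authors' deposited comparison of the diets does not name its numerator, and it did not follow the headings of the TPM columns. In a regression of its log2 fold changes on the 6 libraries across 13196 genes, PLX5622 1 and PLX5622 2 had weights of 0.32 and 0.301 but PLX5622 3 had −0.291. Control 1 and control 2 had −0.375 and −0.364 but control 3 had 0.408. The headings of control 3 and PLX5622 3 may thus be exchanged either in the TPM table or in the authors' comparison, which cannot be told apart here and would change what every difference by label means, those of Sult1a1 and Nr3c1 included. Values by label and values from the authors' table are therefore given separately, and results by label also without the libraries numbered 3. The 14 microglial markers summed to 40.3, 28.6 and 58.2 TPM in PLX5622 1, 2 and 3, against 143, 88.9 and 37.0 TPM in control 1, 2 and 3, and 6 of them (Cx3cr1, C1qb, C1qc, Ctss, Itgam and Fcrls) were listed at 0 in PLX5622 2. Longer transcripts read higher in some libraries than in others. Set against the gene means, values rose with log transcript length in the PLX5622 libraries and control 2 (Pearson r across genes 0.218 to 0.401) and fell with it in control 1 and control 3 (r = −0.443 and −0.423). The 13 astrocyte markers were all detected and summed to between 40640 and 45150 TPM in PLX5622 libraries and between 25530 and 35830 TPM in control libraries. The 12 oligodendrocyte markers summed to between 3289 and 4316 TPM in PLX5622 libraries and between 3587 and 4709 TPM in control libraries. In such bulk libraries, fewer cells of a type and less RNA per cell cannot be told apart.

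The metallothioneins were among the most abundant transcripts of the captured RNA. By mean TPM, Mt3 ranked 8, Mt1 ranked 13 and Mt2 ranked 20 among the 26264 genes. Together they made up 1.60, 2.02 and 1.72% of all TPM in the PLX5622 libraries and 2.78, 1.54 and 2.38% in the control libraries. The order Mt3, Mt1, Mt2 held within each of the 6 libraries, although the lowest Mt3 value (7916 TPM) lay below the highest Mt1 value (9743 TPM). Mt4, the fourth gene of the family and known from stratified epithelia, was listed at 0 in all 6 libraries.

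Mt1 was at 5087, 7014 and 5226 TPM in PLX5622 1, 2 and 3, against 9743, 4915 and 8004 TPM in control 1, 2 and 3. The groups overlapped, since control 2 was the lowest library of all and control 1 and control 3 were the highest. The difference, PLX5622 minus control, was −0.35 ± 0.25 on the log2(TPM + 1) scale (SE, n = 3 each; 95% interval −0.92 to 0.23; limma adjusted p = 0.398). Mt2 was at 2534, 3417 and 2786 TPM in PLX5622 libraries, against 4992, 2579 and 4449 TPM in control libraries. Its libraries stood in nearly the same order, with PLX5622 1 and control 2 at the bottom, and its difference was −0.42 ± 0.24 (95% interval −0.97 to 0.14; limma adjusted p = 0.307). Mt3 was at 8411, 9792 and 9189 TPM in PLX5622 libraries, against 13060, 7916 and 11350 TPM in control libraries. Its difference was −0.21 ± 0.21 (95% interval −0.67 to 0.25; limma adjusted p = 0.517), smaller than the spread among control libraries. In the authors' deposited table the log2 fold changes of Mt1, Mt2 and Mt3 were −0.077, −0.084 and −0.11, with standard errors of 0.35, 0.36 and 0.29, and the mean normalized counts were 77930, 41480 and 114900.

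**Figure D1:**
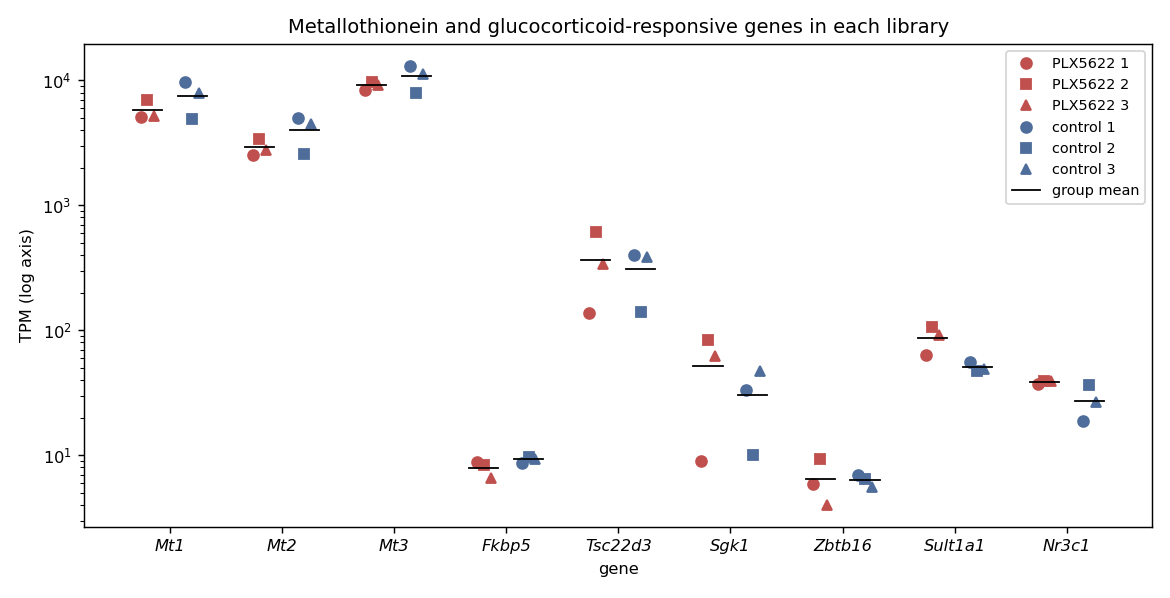
TPM on a log axis of each of the 9 genes in the 3 PLX5622 libraries (red) and the 3 control libraries (blue), with symbols for the replicate number and black lines for group means. Mt1, Mt2 and Mt3 lie at 2534 TPM or more in all libraries, Fkbp5 and Zbtb16 lie under 10 TPM, and Sgk1 and Tsc22d3 have the lowest points in PLX5622 1 and control 2.

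The 3 metallothioneins kept close proportions to each other. The ratio of Mt1 to Mt2 was 2.01, 2.05 and 1.88 in PLX5622 1, 2 and 3 and 1.95, 1.91 and 1.80 in control 1, 2 and 3. The ratio of Mt3 to Mt1 ranged from 1.40 to 1.76 in PLX5622 libraries and from 1.34 to 1.61 in control libraries. Each of the 3 genes had its highest library, control 1, at between 1.65 and 1.98 times its lowest. Mt1 and Mt2 are also known from brain endothelium, and the 11 endothelial markers, 5 of which averaged 1 TPM or more, summed to between 180 and 199 TPM in PLX5622 libraries and between 175 and 203 TPM in control libraries. Slc2a1 and Ramp2, averaging 97.0 and 77.2 TPM, made up most of these sums, while Cldn5 averaged 2.2 and Egfl7 8.88 TPM. All PLX5622 libraries were below all control libraries for Cldn5, Egfl7 and Tek, as in 9.39% of all tested genes. They were above them for Slc2a1, as in 19.4%. Tek averaged 0.12 TPM and was not tested. The other endothelial markers overlapped. Mt1 and Mt2 are close paralogs, and how reads that match both were counted is not given in the sources used here. In GENCODE M21 an antisense gene, Gm45774, shares 432 exonic bases with Mt2, and the libraries did not keep strand. Genes with a pattern most like that of Mt2 over the 6 libraries included Chchd1, Cnpy2, Alyref and Ubl7 (Pearson r = 0.995 to 0.999, among 7716 genes averaging 10 TPM or more). Of these 7716 genes, 620 had r of at least 0.9 with Mt2, so a pattern like that of Mt2 was common. The points share libraries, and the values are a description.

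The metallothioneins have short transcripts. By summed exon length Mt2 (588 bases), Mt3 (1066 bases) and Mt1 (1246 bases) were longer than 0.985, 3.64 and 5.09% of tested genes. The 2 libraries with the highest metallothionein levels, control 1 and control 3, were also those in which short transcripts read high. The difference by label was −0.21 for Mt3 and −0.35 for Mt1. After a loess correction of each library on log transcript length, the differences were −0.13 ± 0.21 for Mt1, −0.056 ± 0.16 for Mt2 and 0.036 ± 0.15 for Mt3, so that the sign of Mt3 turned (limma adjusted p = 0.702, 0.846 and 0.894). The part of transcript length in these differences was not tested. Without control 2 all 3 were called lower (limma adjusted p = 0.0130 for Mt1, 0.00497 for Mt2 and 0.0358 for Mt3). In that fit 5 of the 9 members were called, beside 28.7% of all tested genes: the 3 metallothioneins lower, beside 8.82%, and Sult1a1 and Nr3c1 higher, beside 19.9%. The 2 control libraries left in it are those in which short transcripts read high. Without control 1 the differences of Mt1, Mt2 and Mt3 were −0.13, −0.23 and −0.057, and without the libraries numbered 3 they were −0.21, −0.29 and −0.16; none of these was called.

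**Figure D2:**
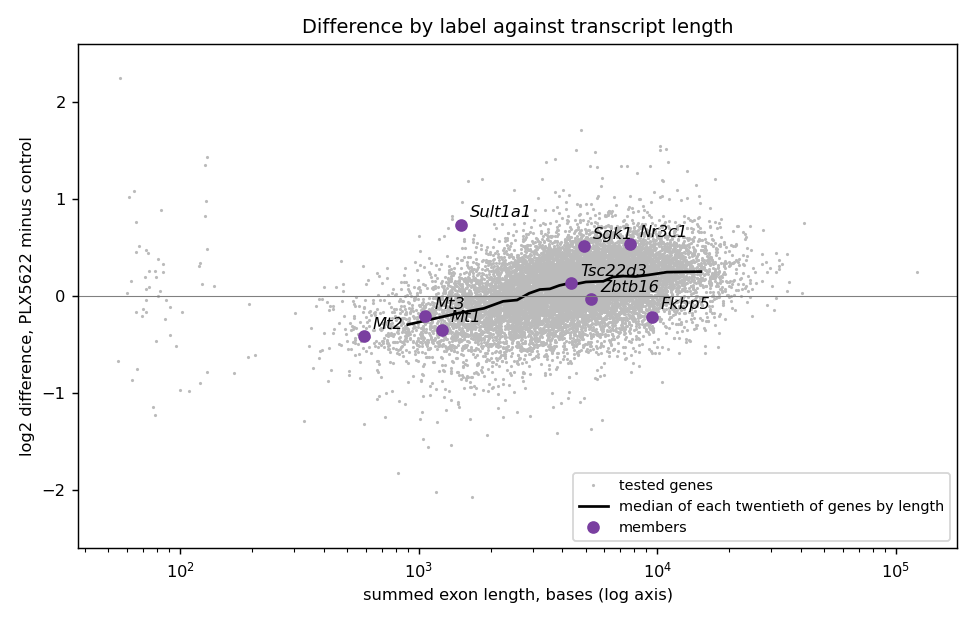
Log2 difference, PLX5622 minus control by label, of each tested gene against its summed exon length on a log axis, with the 9 members in purple and a line through the median of each twentieth of genes by length. Mt1, Mt2 and Mt3 lie near the line at the short end, where medians are below 0, while Sult1a1 lies 0.74 above 0 at 1507 bases.

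Among the other genes of zinc and copper handling no gene was called. Of 27 tested genes 0 passed in either direction at a limma adjusted p of 0.05, against 0.0% of all tested genes. At an unadjusted p under 0.05, 5 were higher and 1 was lower, where 14.7% of all tested genes were higher and 8.02% lower. The median difference of the list was 0.28, beside 0.089 over all tested genes, and it was 0.10 after the length correction, beside 0.00024. Slc39a12, a zinc importer of astrocytes and the most abundant gene of the list, averaged 260 ± 18.1 TPM in PLX5622 libraries and 180 ± 38.3 TPM in control libraries (SD, n = 3 each). Atox1, a copper chaperone with a short transcript, averaged 181 ± 3.28 TPM in PLX5622 libraries and 250 ± 56.6 TPM in control libraries. Slc39a7, a zinc transporter of the endoplasmic reticulum, averaged 162 ± 8.36 and Ccs, the copper chaperone of superoxide dismutase, 123 ± 7.42 TPM in PLX5622 libraries, against 145 ± 19.2 and 144 ± 21.2 TPM in control libraries.

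The glucocorticoid receptor transcript was present in the ribosome-bound RNA of all libraries, together with that of Hsd11b1, the enzyme that regenerates its ligand. Nr3c1 was at 37.2, 39.1 and 39.6 TPM in PLX5622 1, 2 and 3, against 18.8, 36.5 and 26.7 TPM in control 1, 2 and 3. All PLX5622 libraries were above all control libraries, but by little over control 2. Of the 9 members 2, Nr3c1 and Sult1a1, showed this separation, as did 19.4% of all tested genes, and 0 members had all PLX5622 libraries below all control libraries, as 9.39% of all tested genes did. The difference was 0.53 ± 0.21 (log2, SE; 95% interval 0.065 to 1.0), and it did not pass over all genes (limma adjusted p = 0.205). After the length correction it was 0.33 ± 0.14 (limma adjusted p = 0.202), without control 1 it was 0.30, and without the libraries numbered 3 it was 0.52, neither of them called. Without control 2 it was called higher at 0.76 (limma adjusted p = 0.00484). The Nr3c1 value in the authors' deposited table was 0.095 (SE 0.26; 95% interval −0.42 to 0.61).

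Of the receptor's partners and cofactors, 14 of 16 listed genes were tested and 0 were called in either direction. At an unadjusted limma p under 0.05, 5 were higher (Hsp90aa1, Ncoa1, Ncoa2, Ncor1 and Crebbp) and 0 were lower, where 14.7% of all tested genes were higher and 8.02% lower. Hsp90aa1, a chaperone that holds the receptor ready for its ligand, averaged 369 ± 20.4 TPM in PLX5622 libraries and 281 ± 69.7 TPM in control libraries. Its constitutive relative Hsp90ab1 averaged 1220 ± 30.4 TPM in PLX5622 libraries and 1225 ± 39.2 TPM in control libraries. Hspa8, which loads the receptor onto Hsp90, averaged 1870 ± 678 TPM in PLX5622 libraries and 1684 ± 305 TPM in control libraries. Fkbp4, the co-chaperone that promotes nuclear entry and is the counterpart of Fkbp5, averaged 238 ± 26.1 TPM in PLX5622 libraries and 209 ± 6.23 TPM in control libraries. Hsd11b1, which makes corticosterone from its inactive form, averaged 231 ± 39.4 TPM in PLX5622 libraries and 204 ± 20.3 TPM in control libraries. Hsd11b2, which inactivates corticosterone, averaged 0.0595 ± 0.0598 TPM in PLX5622 libraries and 0.114 ± 0.116 TPM in control libraries. The mineralocorticoid receptor gene Nr3c2 averaged 12.8 ± 2.13 TPM in PLX5622 libraries and 12.9 ± 2.22 TPM in control libraries. Hsd11b1, Hsd11b2 and Nr3c2 were named for their roles after their values were seen.

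Sgk1 and Tsc22d3 varied far more among libraries than between diets. Sgk1, a kinase that acts on ion channels and transporters, was at 9.01, 83.2 and 62.8 TPM in PLX5622 1, 2 and 3, against 33.4, 9.998 and 47.6 TPM in control 1, 2 and 3. PLX5622 1 and control 2 were the lowest libraries, and the groups overlapped. The highest library was 9.24 times the lowest, and the difference between diets was 0.52 ± 0.77 (95% interval −1.21 to 2.24; limma adjusted p = 0.678). Tsc22d3, also known as GILZ, an anti-inflammatory transcriptional regulator, was at 139, 608 and 340 TPM in PLX5622 1, 2 and 3, against 403, 139 and 387 TPM in control 1, 2 and 3. The same pair of libraries was lowest, at values that differ by less than 1 TPM, and the highest was 4.39 times the lowest. Its difference was 0.13 ± 0.53 (95% interval −1.06 to 1.33; limma adjusted p = 0.886). A span of 4 times or more was found in 2.05% of all tested genes. In the authors' deposited table Sgk1 was at 0.36 (SE 1.04) and Tsc22d3 at 0.28 (SE 0.76), with mean normalized counts of 3631 and 23480.

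Sgk1 is known as a gene of oligodendrocytes as well as astrocytes. The oligodendrocyte markers summed to 4316 TPM in PLX5622 1 and 4709 TPM in control 2, the highest sum of each diet. Astrocyte markers summed to 40640 TPM in PLX5622 1 and 35830 TPM in control 2, the lowest and the highest sum of their diets. The part of either cell type in the Sgk1 values was not tested. PLX5622 1 and control 2 were the lowest 2 libraries in 5 of the 9 members (Mt1, Mt2, Mt3, Tsc22d3 and Sgk1), and in 6.59% of all tested genes. This pair was singled out after the values were seen. A single library decided the sign of the diet difference in both genes. For Sgk1 it was 1.47 without PLX5622 1, −0.12 without control 2 and −0.063 without PLX5622 2. For Tsc22d3 it was 0.70 without PLX5622 1, −0.37 without control 2 and −0.36 without PLX5622 2.

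**Figure D3:**
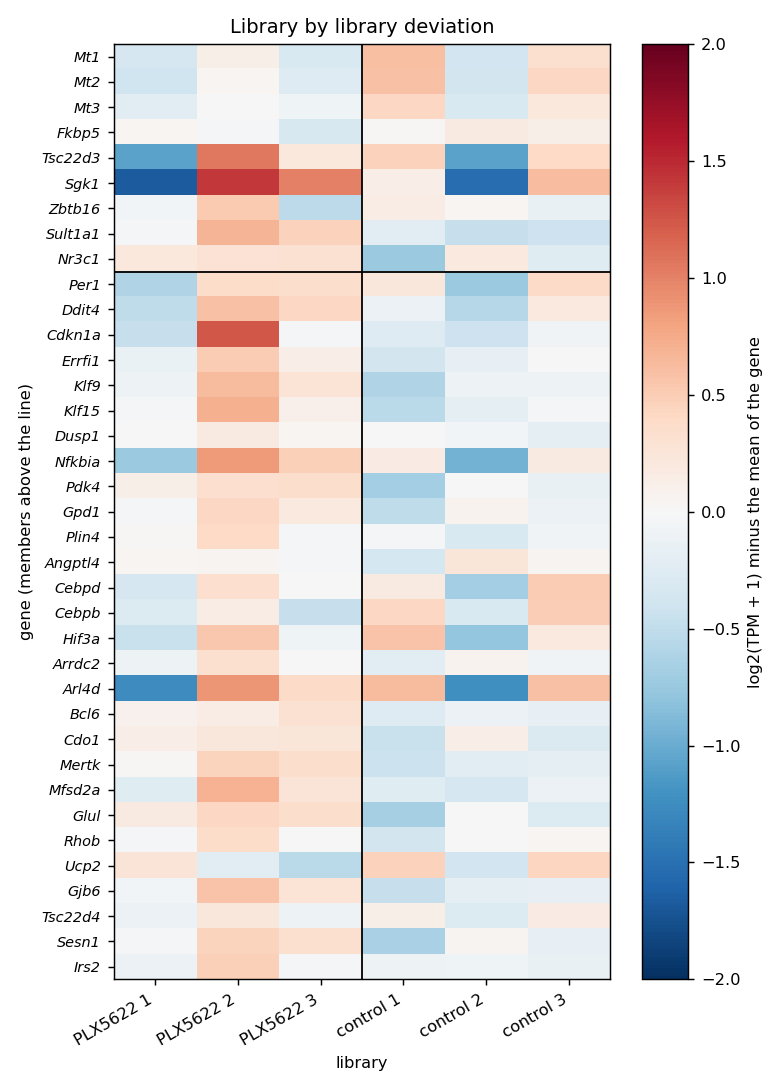
Deviation of log2(TPM + 1) from the mean of each gene in the 3 PLX5622 libraries (left) and the 3 control libraries (right), for the 9 members above the line and the 28 tested glucocorticoid-induced genes under it. Blue cells mark low libraries: Tsc22d3, Sgk1, Per1, Nfkbia and Arl4d are low in PLX5622 1 and control 2, while Fkbp5 varies little.

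Fkbp5 and Zbtb16 did not share that pattern. Fkbp5, a co-chaperone that lowers the affinity of the receptor for its ligand and a standard readout of glucocorticoid exposure, was at 8.82, 8.31 and 6.59 TPM in PLX5622 1, 2 and 3, against 8.69, 9.77 and 9.33 TPM in control 1, 2 and 3. The groups overlapped through PLX5622 1 and control 1, and control 2, low in Sgk1, was the highest Fkbp5 library. Its difference was −0.21 ± 0.15 (95% interval −0.54 to 0.12; limma adjusted p = 0.367). Its highest library was 1.48 times its lowest, the narrowest span of the 9 genes, and 58.3% of all tested genes spanned 1.5 times or more. Fkbp5 has a long transcript of 9468 summed exon bases, and after the length correction its difference was −0.43 ± 0.14 (limma adjusted p = 0.168). The authors' deposited table gave Fkbp5 a log2 fold change of 0.018 (SE 0.22) and a mean normalized count of 708. Zbtb16, a zinc finger transcription factor also called PLZF, was at 5.95, 9.38 and 4.01 TPM in PLX5622 1, 2 and 3, against 6.94, 6.44 and 5.53 TPM in control 1, 2 and 3. PLX5622 libraries held both its highest and its lowest value, and its difference was −0.031 ± 0.24 (95% interval −0.57 to 0.51; limma adjusted p = 0.944). Zbtb16 was at 0.19 (SE 0.32) in the authors' deposited table. The 5 genes most like Fkbp5 over the 6 libraries were Alas1, Tmed9, Kcnf1, Tmem222 and Taf1b (Pearson r = 0.976 to 0.990 among the same 7716 genes), and 66 genes had r of at least 0.9.

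Sult1a1 showed the largest separation of the diets by label among the 9 genes. Sult1a1 is a phenol sulfotransferase that conjugates small phenols. It was at 63.9, 106 and 91.0 TPM in PLX5622 1, 2 and 3, against 55.9, 47.4 and 49.4 TPM in control 1, 2 and 3. All PLX5622 libraries were above all control libraries, as in 19.4% of all tested genes. The difference was 0.74 ± 0.18 (95% interval 0.33 to 1.15), which did not pass over all genes (limma adjusted p = 0.205). Sult1a1 has 1507 summed exon bases, and its difference was 0.90 ± 0.18 after the length correction (limma adjusted p = 0.161). Over all ways of leaving out a single library it stayed between 0.58 and 0.94, and it was called higher without control 2 (limma adjusted p = 0.0143). Without the libraries numbered 3 it was 0.67 ± 0.28 (limma adjusted p = 0.856). The authors' deposited table gave Sult1a1 a log2 fold change of 0.13 (SE 0.34; 95% interval −0.53 to 0.80). Sgf29 on the other strand shares 61 exonic bases with Sult1a1, averages 20.8 TPM, and cannot be told apart from it there.

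Of the other sulfotransferases and their cofactor genes, 6 of 14 listed genes were tested and 0 were called. At an unadjusted limma p under 0.05, 2 were higher (Papss1 and Papss2) and 2 were lower (Sult2b1 and Sult4a1), where 14.7% of all tested genes were higher and 8.02% lower. Sult2b1, a sterol sulfotransferase named after its values were seen, was at 2.38, 2.03 and 1.17 TPM in PLX5622 1, 2 and 3, against 5.43, 4.56 and 5.14 TPM in control 1, 2 and 3. All its PLX5622 libraries were below all control libraries, as in 9.39% of all tested genes, and its difference of −1.10 ± 0.18 did not pass over all genes (limma adjusted p = 0.205). Papss2 and Papss1, which make the sulfate donor, averaged 115 ± 7.54 and 146 ± 7.61 TPM in PLX5622 libraries, against 76.2 ± 19.2 and 113 ± 26.6 TPM in control libraries. Sult4a1, a sulfotransferase of neurons, averaged 72.7 ± 21.1 TPM in PLX5622 libraries and 113 ± 10.8 TPM in control libraries, and the 12 neuron markers summed to between 1451 and 2240 TPM in PLX5622 libraries and between 2271 and 2839 TPM in control libraries. Slc35b2, which carries the sulfate donor into the Golgi, averaged 63.4 ± 4.48 TPM in PLX5622 libraries and 67.8 ± 4.37 TPM in control libraries. The part of neuronal RNA in the Sult4a1 values was not tested.

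**Figure D4:**
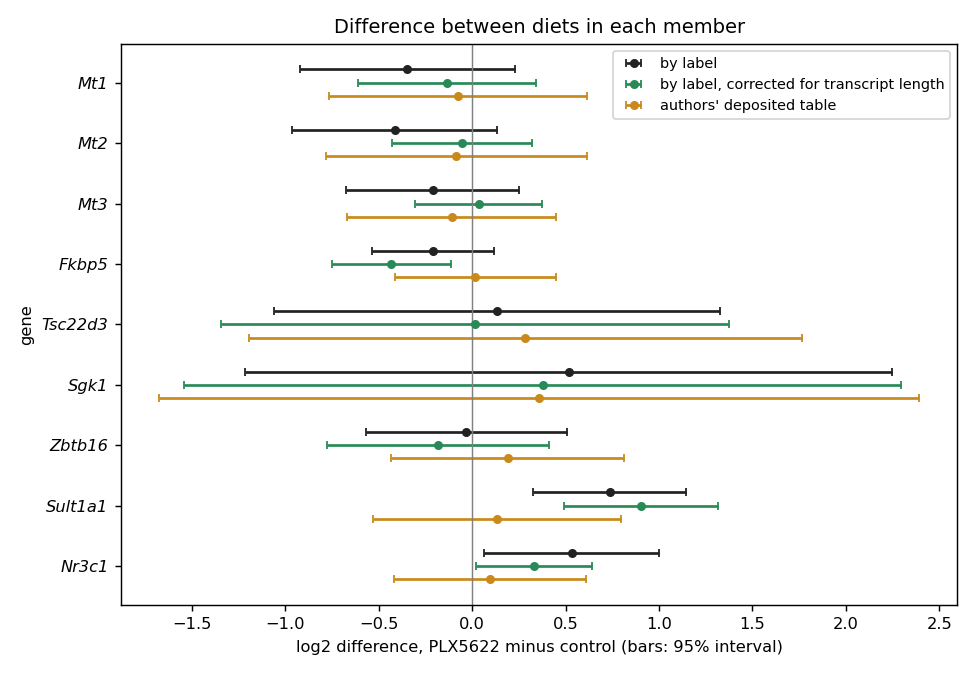
Log2 difference, PLX5622 minus control, of each of the 9 genes with 95% intervals, by label (black), by label after correction for transcript length (green) and in the authors' deposited table (orange). By label the interval excludes 0 for Sult1a1 and Nr3c1, after the length correction it does so for these 2 and Fkbp5, and in the authors' deposited table every interval includes 0.

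Of 30 other glucocorticoid-induced genes 28 were tested, and none was called by label. Of these 28, 24 were positive with a median of 0.34, beside 61.1% of all tested genes positive and a median of 0.089. With size-factor scaling 20 of 28 were positive with a median of 0.25 (6728 of 13080 over all genes, median 0.011). After the length correction 21 of 28 were positive with a median of 0.26 (6401 of 12794 over all genes, median 0.00024). At an unadjusted limma p under 0.05, 10 were higher (Klf9, Klf15, Pdk4, Bcl6, Cdo1, Mertk, Mfsd2a, Glul, Gjb6 and Sesn1) and 0 were lower, where 14.7% of all tested genes were higher and 8.02% lower. Glul, glutamine synthetase, averaged 17010 ± 1420 TPM in PLX5622 libraries and 11210 ± 2467 TPM in control libraries. Gjb6, an astrocyte connexin, averaged 521 ± 111 TPM in PLX5622 libraries and 357 ± 39.6 TPM in control libraries. Both are also in the astrocyte marker list, whose sum did not overlap between the diets. Glul, at 8676 to 18180 TPM, is itself a large part of that sum of 25530 to 45150 TPM. The part of astrocyte RNA in these values was not tested. Rhob, a small GTPase, and Tsc22d4, a relative of Tsc22d3, averaged 267 ± 43.3 and 229 ± 32.2 TPM in PLX5622 libraries, against 229 ± 34.4 and 231 ± 36.5 TPM in control libraries. Of the 30 genes in the authors' deposited table, 27 were positive with a median of 0.15. Over all its genes 9292 of 20062 were positive, with a median of −0.017. Of the 30 genes 0 had an unadjusted DESeq2 p under 0.05, beside 170 over all its genes. That table called 14 genes (0.0698% of its genes), and 0 of the 9 members.

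The pair of low libraries recurred in part of that list. PLX5622 1 and control 2 were the lowest 2 libraries for 9 of 28 genes: Per1, Ddit4, Cdkn1a, Nfkbia, Cebpd, Hif3a, Arl4d, Mfsd2a and Tsc22d4. Arl4d, a small GTPase, was at 14.5, 68.0 and 47.8 TPM in PLX5622 1, 2 and 3, against 56.8, 14.9 and 54.8 TPM in control 1, 2 and 3. Nfkbia, the inhibitor of NF-kappaB, was at 22.9, 70.8 and 54.6 TPM in PLX5622 libraries, against 43.5, 19.7 and 44.1 TPM in control libraries. Per1, a clock gene induced by glucocorticoids, was at 17.2, 34.9 and 34.5 TPM in PLX5622 libraries, against 31.4, 15.6 and 35.3 TPM in control libraries. These 9 genes were named after their values were seen. In the zinc and copper list the same pair was lowest for 0 of 27 genes, and in the list of receptor partners for 3 of 14. PLX5622 2 was the highest library for 19 of the 28 genes and for 4 of the 9 members, and for 23.1% of all tested genes.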

How the data were processed

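Ribosome-bound mRNA of 6 brain libraries was sequenced from non-stranded libraries, per the labels' protocols. The submitters' processing notes name build mm39, the aligner STAR 2.7.10a, Subread 2.0.1 with featureCounts, R 4.1.0 and DESeq2 1.32.0; their annotation, gene lengths and filters are not given in sources used here. The authors deposited TPM values, and since these keep no read depth, library depth is unknown. A second table holds, per the file headers, the authors' DESeq2 comparison: mean normalized counts (a signal per gene, summing to 48090000), log2 fold changes with standard errors, a test score, and raw and adjusted p-values; its numerator is not named, and it was taken to be PLX5622.

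From the TPM, limma 3.58.1 in R 4.3.3 was run on log2(TPM + 1), allowing a mean-variance trend, for genes averaging 1 TPM or more, two-sided, with Benjamini-Hochberg adjustment over 13084 genes at 0.05. It was tested on simulated data. Fold changes on this scale understate changes of low genes. Intervals by label come from the fit, and those of the authors' table from its standard errors under a normal approximation. Exon lengths came from GENCODE M21 by symbol (97.8% of tested genes, all 9 members) and promoter sequences from RefSeq, build GRCm38.p6. Nothing says which libraries came from which animals beyond the labels' biological replicates. The members and lists were chosen with earlier results of these data known; each list's 4 most abundant tested genes were named, with other genes named as stated; a gene that the rule takes is not reported here. No column was left out.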

Additional observations from a re-analysis of the deposited data

How the results depend on the processing

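By label 0 genes were called higher and 0 lower (limma; 1925 and 1049 at an unadjusted p under 0.05), and 0 of 9 members and 0 of 75 tested list genes were called. These counts stayed at 0 with a pseudocount of 0.1, without a filter on low values, with size-factor scaling and with the length correction. Leaving out a single library gave 0 to 2600 genes higher and 0 to 1154 lower, 0 to 5 members and 0 to 28 list genes; the highest counts were all without control 2 (28.7% of all tested genes), and without PLX5622 1 there were 1 higher and 35 lower. Without the libraries numbered 3 there were 2 higher and 12 lower, with 0 members. With the replicate number as a block there were 0 calls in every count. Deviations of same-numbered libraries from their diet means were correlated across genes at r = −0.033, −0.272 and −0.147. These values cannot tell whether the numbers pair the libraries. Centering within each diet ties the values to each other, and the headings numbered 3 may be exchanged. Signs turned for Tsc22d3 (−0.36 without PLX5622 2, −0.37 without control 2), Sgk1 (−0.063 and −0.12 in the same fits), Zbtb16 (0.22 without PLX5622 3, 0.032 without control 1, 0.14 without the libraries numbered 3) and Mt3 (0.036 with the length correction). Over single libraries left out, Tsc22d3 ranged from −0.37 to 0.70, Sgk1 from −0.12 to 1.47, Zbtb16 from −0.30 to 0.22, Nr3c1 from 0.30 to 0.76, Mt1 from −0.63 to −0.13, Mt2 from −0.71 to −0.23, Mt3 from −0.42 to −0.057 and Fkbp5 from −0.29 to −0.10. The causes were not tested. Without depth, the counting error of Fkbp5 and Zbtb16, the lowest genes, cannot be given for each library. Their mean normalized counts in the authors' deposited table were 708 and 1057.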

Other observations

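Per1 was lowest in PLX5622 1 and control 2. The same pair was lowest for Per2, at 2.84, 4.50 and 3.41 TPM in PLX5622 1, 2 and 3, against 3.54, 3.36 and 3.92 TPM in control 1, 2 and 3. For Per2, control 2 lay only just under PLX5622 3. This pair was lowest in 6.59% of all tested genes. Per3 was at 8.80, 9.30 and 9.16 TPM in PLX5622 1, 2 and 3, against 7.29, 8.81 and 9.51 TPM in control 1, 2 and 3. Arntl was at 25.1, 28.1 and 29.3 TPM in PLX5622 libraries, against 9.49, 22.5 and 13.4 TPM in control libraries. Ciart, a clock repressor, was at 12.7, 12.2 and 11.1 TPM in PLX5622 libraries, against 41.8, 16.4 and 38.6 TPM in control libraries. Control 1 and control 3 were the lowest libraries for Arntl (7523 summed exon bases) and the highest for Ciart (2261 summed exon bases), as they were for the metallothioneins. The part of transcript length in the Arntl and Ciart values was not tested. The activity gene Fos was at 11.0, 15.7 and 12.1 TPM in PLX5622 libraries, against 24.5, 7.31 and 18.6 TPM in control libraries, and was also highest in control 1 and control 3. Egr1 was at 19.9, 44.2 and 28.7 TPM in PLX5622 libraries, against 61.5, 28.8 and 55.5 TPM in control libraries. These genes were chosen after their values were seen. They were part of the fit over all genes, and none was called. The difference by label was 0.90 ± 0.25 for Arntl and −1.25 ± 0.30 for Ciart (log2, SE; limma adjusted p = 0.205 for each). All PLX5622 libraries were above all control libraries for Arntl, as in 19.4% of all tested genes. For Ciart all were below, as in 9.39%.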
